A study of Mus musculus with 6 samples.

Results

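The interferon response genes are 43 mouse genes that cells switch on when interferons reach their receptors, or that relay and sense that response. They were taken by name from a deposited table of RNA isoforms, and the FPKM (a fragment count corrected for transcript length and sequencing depth) of a gene's isoforms was summed. Isoforms that match or overlap the exons of an annotated transcript in sense were kept, and intronic, antisense and nearby ones were left out. All 43 genes were found, among 29057 named genes, and 165 of the 194125 isoforms in the table belong to them. The rule that picks them uses gene names and no measured value, but the list was chosen with earlier results of these data known.

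The mice were C57BL/6 males, an inbred strain, 8 weeks old, and RNA was measured in spinal cord. The TSCI libraries (traumatic spinal cord injury) came from mice whose cord was exposed by removing the vertebral arches T8 to T10 and then struck by a falling weight. The sham libraries came from mice that had the arches removed without the blow, so both groups had surgery. Each group had 3 libraries, and the labels name 48 mice in sets of 8 without saying whether a set was pooled or at what time after the blow it was sampled. As nothing shows separate animals behind each library, p-values measure only the spread between these libraries.

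Interferons are secreted proteins that warn cells of viruses and of nucleic acids out of place. Type I interferons bind a receptor pair encoded by Ifnar1 and Ifnar2, kinases of the JAK family then phosphorylate STAT factors, and a complex that holds STAT2 and IRF9 binds a short DNA motif, the interferon-stimulated response element (ISRE). Interferon gamma acts through another motif, the gamma-activated sequence (GAS). In the injured cord, microglia, the resident phagocytes, and blood-borne macrophages are known to express many of these genes, and in bulk tissue a change in the number of such cells and a change in RNA per cell cannot be told apart.

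The libraries held 4.46, 7.93 and 9.16 aligned gigabases in TSCI replicates 1 to 3, and 5.93, 4.80 and 8.20 in sham replicates 1 to 3. TSCI replicate 1 and sham replicate 1 were sequenced in lane 8, sham replicate 2 in lane 3 and the other 3 libraries in lane 1. Markers of neurons, oligodendrocytes and astrocytes were found in every library, with no gene of these lists at 0. In sham replicate 2, 14.6% of tested genes stood at 0, where the other libraries had 2.44% to 4.55%. Of the 40 interferon response genes that were tested, 7 were at 0 there (17.5%), and of all 43, 10 were. Since a listed 0 may come from an estimate that failed, such genes are given library by library.

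Promoter sequence is shown first, because ISRE and GAS are the motifs through which the pathway is known to act. RefSeq promoter windows (GRCm38.p6, 250 bases before to 50 after a start site) were available for 32 of the 43 genes, in 40 windows. For 23 of the 32 genes the bases after a start site were found in an annotated transcript of the gene. For others, among them Ifit3, Oas1a, Bst2 and Ifitm1, they were not, so their start sites are less certain. The ISRE core was searched as GAAA, any 2 bases, GAAA, on either strand, and GAS as TTC, any 3 bases, GAA, which reads the same on both strands. The 5 lines that follow show stretches before the start site of genes that differ in their levels in the libraries, with capitals marking the ISRE core on either strand; overlapping cores run together.
Ifit1 (chr19:34640770-34640828, + strand): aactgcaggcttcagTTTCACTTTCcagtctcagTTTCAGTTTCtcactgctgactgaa
Ifit3 (chr19:34583358-34583431, + strand): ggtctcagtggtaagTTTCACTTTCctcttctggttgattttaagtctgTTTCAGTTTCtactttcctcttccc
Isg15 (chr4:156200860-156200911, - strand): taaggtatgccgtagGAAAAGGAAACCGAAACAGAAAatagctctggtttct
Oas1a (chr5:120907526-120907560, - strand): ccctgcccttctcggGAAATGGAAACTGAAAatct
Bst2 (chr8:71537572-71537617, - strand): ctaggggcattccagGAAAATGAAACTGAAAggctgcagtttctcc
The next lines show a transcription factor gene that rose in TSCI and another known as an early interferon gamma target, with capitals marking GAS.
Irf8 (chr8:120736172-120736228, + strand): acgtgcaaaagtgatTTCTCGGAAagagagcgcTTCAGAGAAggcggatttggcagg
Irf1 (chr11:53769909-53769947, + strand): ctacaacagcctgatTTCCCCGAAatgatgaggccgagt

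The ISRE core stood in 15 of the 32 matched genes (46.9%), against 3.99% of the 27025 genes in the whole promoter table. It stood in 37.5% of the members' windows and in 3.44% of all 32851 windows. GAS stood in 9 of the 32 (28.1%), against 9.55% of all genes. The median log2 fold change, TSCI minus sham, was 1.45 over the 14 tested genes with a core and 1.28 over the 17 without one. Both Ifit genes shown have 2 cores, and so has Bst2, while their levels in the cord went apart, as given with each gene. Irf8 and Ifitm1, both higher in TSCI by the test, have no ISRE core in these windows, and the start site of Ifitm1 is less certain. Zbp1 and Ifi204, also higher by the test, had no window to search. A match is a description of letters and not a binding site.

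Of the 43 genes, 40 had a mean of at least 0.5 FPKM over the 6 libraries and were tested; Mx1, Oas2 and Oas3 were under it. The test was limma's, with a variance trend, on log2(FPKM + 0.5), with p-values adjusted over all 16740 genes tested. On this scale 4 genes rose in TSCI at an adjusted p of 0.05 (limma), Irf8, Zbp1, Ifitm1 and Ifi204, and 0 fell. Among all genes tested, 147 were called higher (0.878%) and 2 lower (0.0119%). The log2 fold change was above 0 in 37 of the 40 genes (92.5%), against 69.9% of all genes, and its median was 1.39, against 0.44. At an unadjusted p under 0.05 there were 18 members, all higher in TSCI, against 1677 higher among all genes (10%). As the members were chosen with earlier results of these data known, such shares describe the list and do not test it.

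In 19 of the 40 tested genes every TSCI value lay above every sham value, and in 0 below; over all genes these shares were 13.4% above and 3.13% below. Counting the 3 untested genes, which adds Mx1 and Oas3, TSCI lay above sham in 21 of the 43. Without the filter this share was 10.1% over all 29057 genes. Of the tested genes 5 (Ifi44, Irf5, Oasl1, Rsad2 and Zbp1) had a sham mean under 0.5 FPKM and so reached the filter through their TSCI values. The 43 genes made up 0.139%, 0.0944% and 0.101% of the summed FPKM in TSCI replicates 1 to 3, and 0.0398%, 0.0307% and 0.0274% in sham. Every TSCI library was thus above every sham library in this share.

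**Figure D1:**
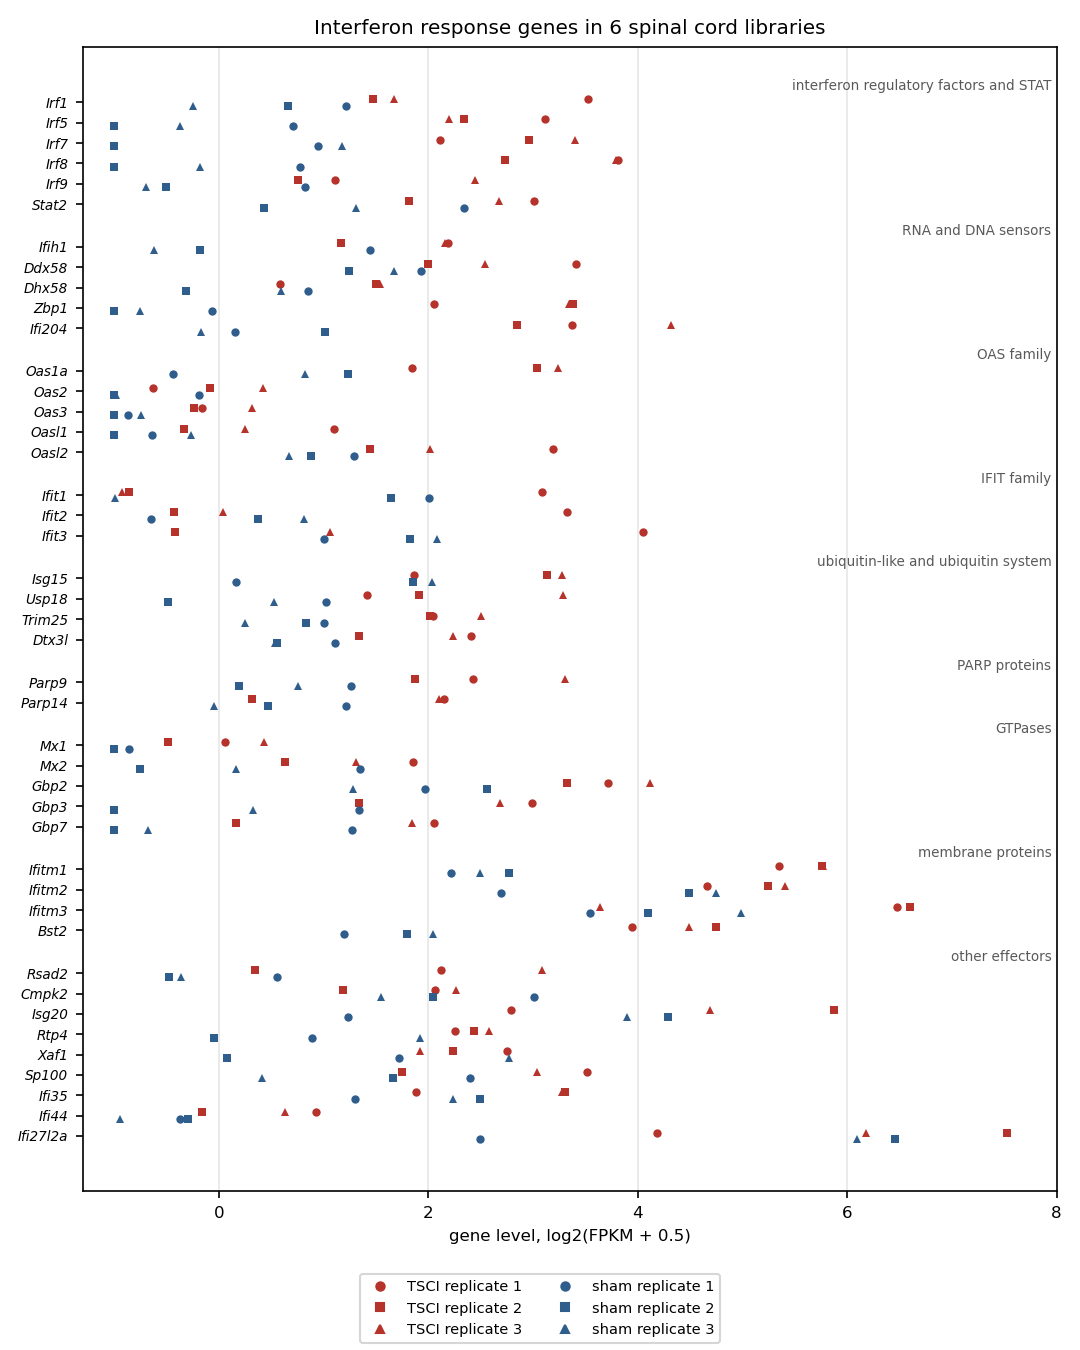
Level of each of the 43 genes on the log2(FPKM + 0.5) scale (x axis), with genes grouped by role down the page; red symbols are the 3 TSCI libraries, drawn above, and blue symbols the 3 sham libraries, with circle, square and triangle for replicates 1 to 3. TSCI lies above sham in 21 of the 43 genes, against 10.1% of all 29057 genes. The 3 Ifit genes spread widely within TSCI, and the sham squares stand at the left edge where sham replicate 2 is at 0.

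**Figure D2:**
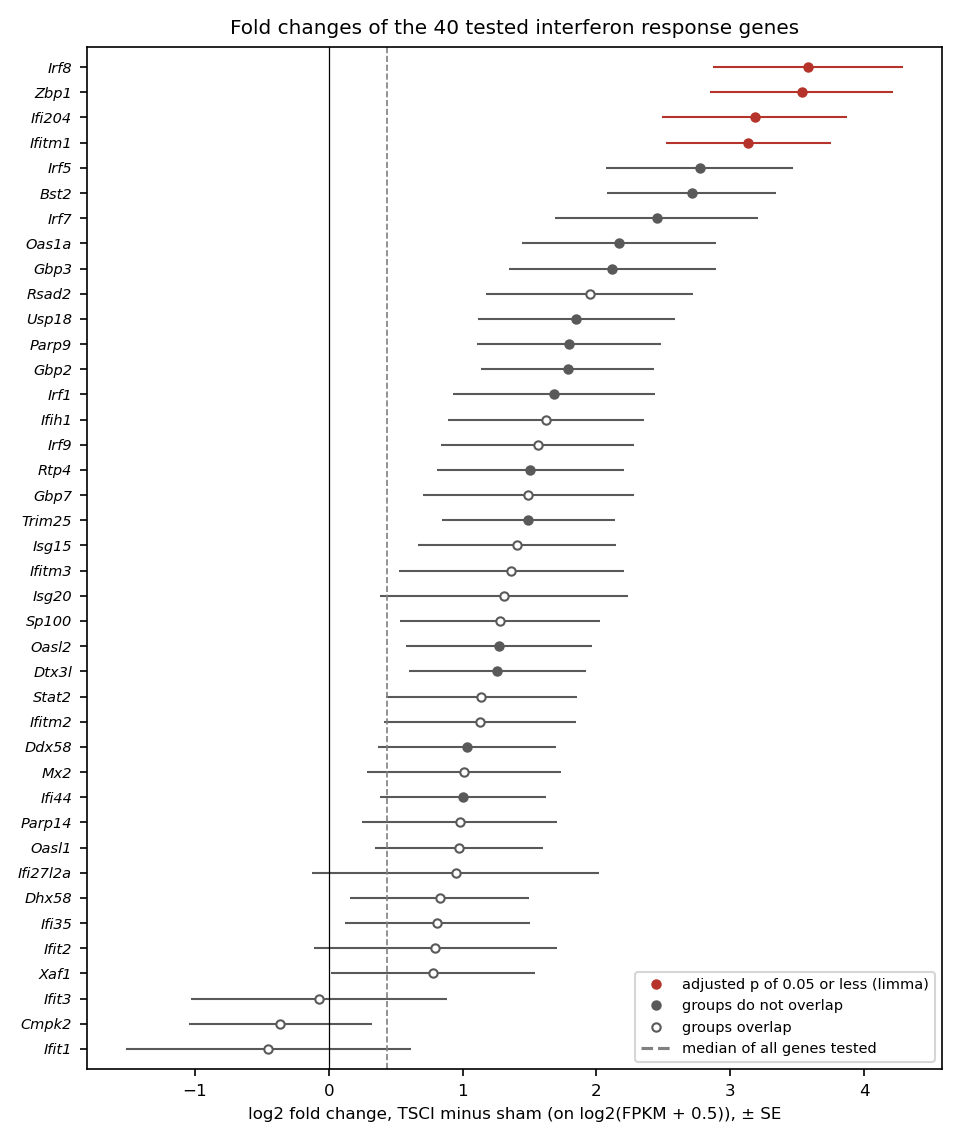
Log2 fold change, TSCI minus sham, with its standard error (x axis) for the 40 tested genes in order of size, with 3 libraries in each group. The 4 red genes at the top pass an adjusted p of 0.05 (limma), filled circles mark genes whose groups do not overlap, and the dashed line is the median of all genes, 0.44.

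The transcription factors come first. Irf8, which myeloid cells need to develop and microglia keep expressing (chr8:120736358-120756694), had 13.5, 6.14 and 13.3 FPKM in TSCI replicates 1 to 3, against 1.21, 0 and 0.383 FPKM in sham replicates 1 to 3. The groups lay far apart, the lowest TSCI value being several times the highest sham value. Irf8 rose by 3.58 ± 0.71 on the log2 scale (SE; limma, adjusted p = 0.0306).

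Irf5, a factor of macrophage activation, was at 8.17, 4.58 and 4.08 FPKM in TSCI, against 1.13, 0 and 0.274 FPKM in sham. The groups did not overlap, and the log2 fold change was 2.77 ± 0.70 (limma, adjusted p = 0.0835), short of the threshold. Irf7, the factor that amplifies type I interferon production, had 3.82, 7.31 and 10.0 FPKM in TSCI, against 1.43, 0 and 1.76 FPKM in sham, again with no overlap (log2 fold change 2.45 ± 0.76; limma, adjusted p = 0.171). Irf1, an early target of interferon gamma, had 11.04, 2.27 and 2.69 FPKM in TSCI, against 1.83, 1.07 and 0.343 in sham, so that replicate 1 of each group was its highest.

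The other 2 factors had overlapping groups. Stat2 was at 7.57, 3.01 and 5.88 FPKM in TSCI, against 4.56, 0.844 and 1.98 FPKM in sham. Sham replicate 1 lay above TSCI replicate 2, and the log2 fold change of 1.14 ± 0.72 did not pass (limma, adjusted p = 0.579). Irf9, the DNA-binding partner, had 1.65, 1.18 and 4.94 FPKM in TSCI, against 1.27, 0.206 and 0.117 FPKM in sham, with an overlap of sham replicate 1 with TSCI replicate 2. All 6 factors had a fold change above 0, 5 of them at an unadjusted p under 0.05 (limma), and 1 passed. Over all genes tested, 69.9% were above 0, 10% were higher at an unadjusted p under 0.05 (limma), and 0.878% passed as higher. The same shares stand beside the counts of the roles that follow.

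Among the sensors of nucleic acids, 2 of 5 rose. Zbp1, which senses Z-form nucleic acid and starts necroptosis, an inflammatory cell death (chr2:173206612-173218923), was at 3.64, 9.94 and 9.62 FPKM in TSCI, against 0.452, 0 and 0.0942 FPKM in sham. It was near or at 0 in all sham libraries and rose by 3.53 ± 0.69 on the log2 scale (SE; limma, adjusted p = 0.0282).

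Ifi204, a DNA sensor of the PYHIN family (chr1:173747293-173766943), was at 9.85, 6.67 and 19.4 FPKM in TSCI, against 0.610, 1.51 and 0.386 FPKM in sham. It rose by 3.18 ± 0.69 on the log2 scale (SE; limma, adjusted p = 0.0475). This family lies in a cluster of closely similar genes, so reads can be split between copies and its level is uncertain. Its neighbours moved likewise in part: Mnda (log2 fold change 3.11; limma, adjusted p = 0.0416) and Ifi205 (2.84; limma, adjusted p = 0.0492) rose too, while Ifi203 had 2.18, 1.26 and 3.48 FPKM in TSCI, against 1.22, 0.989 and 1.89 FPKM in sham.

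The sensors of cytoplasmic RNA did not pass. Ddx58, which encodes RIG-I, was at 10.1, 3.48 and 5.32 FPKM in TSCI, against 3.32, 1.86 and 2.69 FPKM in sham, with no overlap but little between the nearest values. Ifih1, which encodes MDA5, had 4.05, 1.74 and 3.97 FPKM in TSCI, against 2.22, 0.380 and 0.150 in sham. Dhx58, which encodes LGP2, a regulator of the other two, had 1.001, 2.32 and 2.40 FPKM in TSCI, against 1.31, 0.303 and 1.01 FPKM in sham, and its fold change was the smallest of the sensors (0.83 ± 0.67; limma, adjusted p = 0.671).

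The OAS enzymes make 2',5'-oligoadenylates, which switch on the RNA-degrading enzyme RNase L. Oas1a was at 3.09, 7.69 and 8.94 FPKM in TSCI, against 0.237, 1.85 and 1.26 FPKM in sham, with no overlap (log2 fold change 2.17 ± 0.72; limma, adjusted p = 0.212). It belongs to a cluster of near-identical genes, and its copy Oas1g had 1.01, 2.91 and 2.50 FPKM in TSCI, against 0.0877, 1.61 and 0.431 FPKM in sham. Oasl2 had 8.62, 2.22 and 3.54 FPKM in TSCI, against 1.94, 1.34 and 1.09 in sham, also with no overlap.

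The rest of the family was low. Oasl1 had 1.64, 0.296 and 0.684 FPKM in TSCI, against 0.140, 0 and 0.332 FPKM in sham. Oas2 had 0.145, 0.442 and 0.838 FPKM in TSCI, against 0.375, 0 and 0.00641 FPKM in sham, with an overlap. Oas3 had 0.397, 0.349 and 0.744 FPKM in TSCI, against 0.0485, 0 and 0.0973 FPKM in sham, so that its groups did not overlap although it was too low to be tested. In all, 0 of the 3 tested OAS genes passed (limma; 1 at an unadjusted p under 0.05).

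The IFIT genes differed widely between the TSCI libraries. They encode proteins that bind foreign RNA ends and are among the most strongly interferon-induced genes known. Ifit3 was at 16.1, 0.247 and 1.58 FPKM in TSCI, against 1.504, 3.03 and 3.73 FPKM in sham. Ifit1 was at 7.99, 0.0528 and 0.0250 FPKM in TSCI, against 3.52, 2.63 and 0.00193 FPKM in sham. Ifit2 was at 9.51, 0.243 and 0.526 FPKM in TSCI, against 0.139, 0.798 and 1.26 FPKM in sham. All 3 genes were thus highest in TSCI replicate 1, while in TSCI replicate 2 each was lower than in 2 or 3 of the sham libraries.

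Summed over the 3 genes, the level was 33.6, 0.543 and 2.13 FPKM in TSCI, against 5.16, 6.46 and 4.99 FPKM in sham. These sums were close to each other in sham, and the TSCI sums lay on both sides of them. The single genes were not close in sham, with Ifit1 running from 0.00193 to 3.52 FPKM. The log2 fold changes were -0.45 ± 1.07 for Ifit1, 0.80 ± 0.91 for Ifit2 and -0.07 ± 0.96 for Ifit3, with 0 genes passing (limma; 0 at an unadjusted p under 0.05). Without TSCI replicate 1, the fold change of Ifit2 was -0.38, that of Ifit1 -1.78 and that of Ifit3 -1.32. Ifit3b, a near-identical copy of Ifit3 that was not among the members, had 5.45, 1.38 and 7.17 FPKM in TSCI, against 4.35, 0 and 0.585 FPKM in sham, so reads may be split between both genes.

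A value in TSCI replicate 1 more than 2 times that of both other TSCI libraries was found in 6 of the 40 genes, the 3 Ifit genes with Irf1, Oasl1 and Oasl2 (15%, against 17.8% of all genes). The chemokine gene Cxcl10, an interferon target outside the members that was added after its values were seen, had the same shape. It had 11.1, 0.376 and 1.24 FPKM in TSCI, against 0.644, 0.124 and 0 FPKM in sham. The related chemokine gene Cxcl9 did not have this shape, with 0, 0.352 and 0.103 FPKM in TSCI, against 0.291, 0.773 and 3.53 FPKM in sham. The reverse, TSCI replicate 1 at under 0.5 times both others, was found in 7 genes, among them Isg15, Isg20, Oas1a and Zbp1 (17.5%, against 11.5% of all genes). Both shares are given beside those of all genes, and neither is read as particular to these genes.

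Isg15 encodes a ubiquitin-like protein that is attached to others during the response. It was at 3.13, 8.25 and 9.20 FPKM in TSCI, against 0.623, 3.10 and 3.59 FPKM in sham. Sham replicate 3 lay above TSCI replicate 1, and the log2 fold change was 1.41 ± 0.74 (limma, adjusted p = 0.492). Usp18, the enzyme that removes ISG15 and damps the receptor, was at 2.17, 3.26 and 9.26 FPKM in TSCI, against 1.54, 0.215 and 0.942 FPKM in sham, with no overlap (limma, adjusted p = 0.320).

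The role also holds 2 ubiquitin ligases. Trim25, which activates RIG-I, had 3.61, 3.54 and 5.15 FPKM in TSCI, against 1.51, 1.28 and 0.686 FPKM in sham. Dtx3l, the partner of PARP9, had 4.81, 2.02 and 4.20 FPKM in TSCI, against 1.65, 0.968 and 0.950 FPKM in sham. Neither overlapped between groups, and 0 of the 4 genes of this role passed (limma; 2 at an unadjusted p under 0.05).

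Parp9, which with DTX3L enhances interferon signalling, was at 4.87, 3.15 and 9.37 FPKM in TSCI, against 1.89, 0.643 and 1.18 FPKM in sham, with no overlap (log2 fold change 1.80 ± 0.69; limma, adjusted p = 0.295). Parp9 and Dtx3l overlap at their starts on opposite strands, and whether strand was used in counting is not stated. Parp14, another ADP-ribosyltransferase of macrophages, had 3.94, 0.743 and 3.78 FPKM in TSCI, against 1.83, 0.880 and 0.465 FPKM in sham, so TSCI replicate 2 lay within the sham range.

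Of the interferon-induced GTPases, the guanylate-binding proteins, which attack the vacuoles of microbes, were the most abundant. Gbp2 was at 12.7, 9.50 and 16.8 FPKM in TSCI, against 3.40, 5.39 and 1.93 FPKM in sham. Gbp3 was at 7.45, 2.03 and 5.91 FPKM in TSCI, against 2.02, 0 and 0.750 FPKM in sham, so that its groups were kept apart by a narrow gap. Gbp2 and Gbp3 had log2 fold changes of 1.78 ± 0.65 and 2.12 ± 0.77, which did not pass (limma, adjusted p = 0.266 and 0.270).

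Gbp7 had 3.64, 0.622 and 3.09 FPKM in TSCI, against 1.91, 0 and 0.125 FPKM in sham, with an overlap. These Gbp genes lie side by side on chromosome 3 and are alike in sequence, so their levels are uncertain. The antiviral GTPase genes Mx1 and Mx2 are defective in most inbred mouse strains. Mx2 had 3.12, 1.05 and 1.98 FPKM in TSCI, against 2.04, 0.0947 and 0.623 FPKM in sham, and Mx1, too low to be tested, had 0.540, 0.215 and 0.845 FPKM in TSCI, against 0.0515, 0 and 0 FPKM in sham.

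The membrane proteins held the most abundant of the 4 genes that rose. Ifitm1, which blocks the fusion of viruses with cell membranes (chr7:140967221-140969825), was at 40.2, 53.8 and 53.9 FPKM in TSCI, against 4.15, 6.32 and 5.11 FPKM in sham. The replicates of each group agreed closely, with means of 49.3 ± 7.85 FPKM in TSCI, against 5.19 ± 1.09 FPKM in sham (SD, n = 3 each). Ifitm1 rose by 3.13 ± 0.62 on the log2 scale (SE; limma, adjusted p = 0.0291). Bst2, or tetherin, which holds budding virus on the cell surface, was at 14.9, 26.3 and 22.0 FPKM in TSCI, against 1.78, 2.98 and 3.63 FPKM in sham. Its groups were also far apart, but its log2 fold change of 2.71 ± 0.63 fell short of the threshold (limma, adjusted p = 0.0624).

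The neighbours of Ifitm1 were not alike. Ifitm2 was at 24.7, 37.5 and 41.9 FPKM in TSCI, against 5.95, 21.9 and 26.3 FPKM in sham, with sham replicate 3 above TSCI replicate 1. Ifitm3, the most abundant of the 3 in TSCI, was at 88.7, 96.2 and 11.98 FPKM in TSCI, against 11.2, 16.6 and 31.2 FPKM in sham. TSCI replicate 3 was thus within the sham range while it had the highest Ifitm2 and Ifitm1 values. Neither passed (limma, adjusted p = 0.583 for Ifitm2 and 0.570 for Ifitm3), and the 3 genes are alike in sequence, so reads may be split between them.

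Among the other effectors, 0 of 9 passed (limma; 2 at an unadjusted p under 0.05). Rsad2, or viperin, which makes a chain-terminating nucleotide, was at 3.84, 0.774 and 8.00 FPKM in TSCI, against 0.968, 0.217 and 0.276 FPKM in sham. Its neighbour Cmpk2, which supplies the substrate, had 3.69, 1.78 and 4.31 FPKM in TSCI, against 7.56, 3.63 and 2.41 FPKM in sham. Rsad2 had a log2 fold change of 1.95 ± 0.77 and Cmpk2 one of -0.36 ± 0.69, and the groups overlapped in both (limma, adjusted p = 0.320 and 0.871).

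Rtp4, a chaperone of receptors, had 4.27, 4.91 and 5.47 FPKM in TSCI, with little spread, and 1.35, 0.465 and 3.28 FPKM in sham. Ifi44 had 1.40, 0.391 and 1.05 FPKM in TSCI, against 0.275, 0.313 and 0.0181 FPKM in sham; neither of these overlapped between groups. Xaf1, a regulator of apoptosis, had 6.23, 4.21 and 3.29 FPKM in TSCI, against 2.79, 0.557 and 6.31 FPKM in sham, so that the highest value of all was in sham replicate 3. The last of this role overlapped too: Sp100, of nuclear bodies, had 10.9, 2.85 and 7.71 FPKM in TSCI, against 4.75, 2.67 and 0.826 FPKM in sham. Ifi35 had 3.19, 9.40 and 9.17 FPKM in TSCI, against 1.96, 5.14 and 4.21 FPKM in sham.

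Ifi27l2a and Isg20 were abundant and varied widely by library. Ifi27l2a, which encodes a small hydrophobic protein and has close copies nearby, was at 17.6, 184 and 72.2 FPKM in TSCI, against 5.13, 87.5 and 68.0 FPKM in sham. Isg20, an RNA-degrading exonuclease, was at 6.39, 58.0 and 25.4 FPKM in TSCI, against 1.84, 19.0 and 14.4 FPKM in sham. In both genes replicate 1 was the lowest and replicate 2 the highest library of each group, and the groups overlapped (limma, adjusted p = 0.770 and 0.627).

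Within each group the summed level of 7 erythrocyte genes took the same order, with 9111, 140404 and 49149 FPKM in TSCI, against 3039, 30565 and 22314 FPKM in sham. These genes made up 3.18%, 23.1% and 11.4% of all FPKM in TSCI, against 1.27%, 4.79% and 3.15% in sham. The sums of 8 monocyte and macrophage genes and of 6 skeletal muscle genes, given below, took the same order of libraries. The part of blood left in the tissue, or of these other cells, in the levels of Ifi27l2a and Isg20 was not tested. Length moved with the library too: among the 9 tested members whose main isoform was under 1200 bases, TSCI replicate 1 was the lowest TSCI library in 7 (77.8%), and sham replicate 1 was the lowest sham library in 7. Over all genes of that length these shares were 44.8% and 41.9%. Among the 31 longer members they were 19.4% and 12.9%, against 20.8% and 12.6% of all longer genes.

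The comparison was repeated within lanes, as the libraries of lane 8 stood apart. Across all genes TSCI replicate 1 correlated with sham replicate 1 (Spearman's rho 0.79, across genes within these libraries) about as with TSCI replicate 3 (0.81). With TSCI replicate 2 the correlation was lower (0.75). Across the 40 tested members, TSCI replicate 1 had a rho of 0.36 with TSCI replicate 2 and 0.39 with TSCI replicate 3. With sham replicates 1 to 3 it was higher, at 0.48, 0.52 and 0.44. In lane 8, with 1 library of each group, the median log2 difference of the 40 genes was 1.51, against 0.04 over all genes. In lane 1, with 2 TSCI libraries and 1 sham library, it was 1.32, against 0.47. The difference was above 0 in both lanes in 35 of the 40 genes, against 40.3% of all genes. Lane 3 held a sham library only.

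Irf8 had differences of 3.04 within lane 8 and 3.44 within lane 1, and Ifitm1 had 3.13 and 3.28. For Ifi204 they were 3.22 and 3.75, and for Zbp1 2.12 and 4.11. All 4 genes were thus higher in TSCI by more than 2 on the log2 scale in each lane. They were called on the same libraries, with groups at least 1.83 apart on this scale. Differences of at least that size within each lane were therefore fixed beforehand and are no separate test. Ifit2 and Ifit3 had opposite signs, with 3.97 and 3.05 in lane 8 and -1.01 and -1.76 in lane 1, and so did Xaf1, with 1.03 and -0.69. Dhx58 and Cmpk2 turned the other way, with -0.27 and -0.94 in lane 8 and 0.92 and 0.18 in lane 1. Ifitm3 had 2.94 in lane 8 and 0.13 in lane 1.

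**Figure D3:**
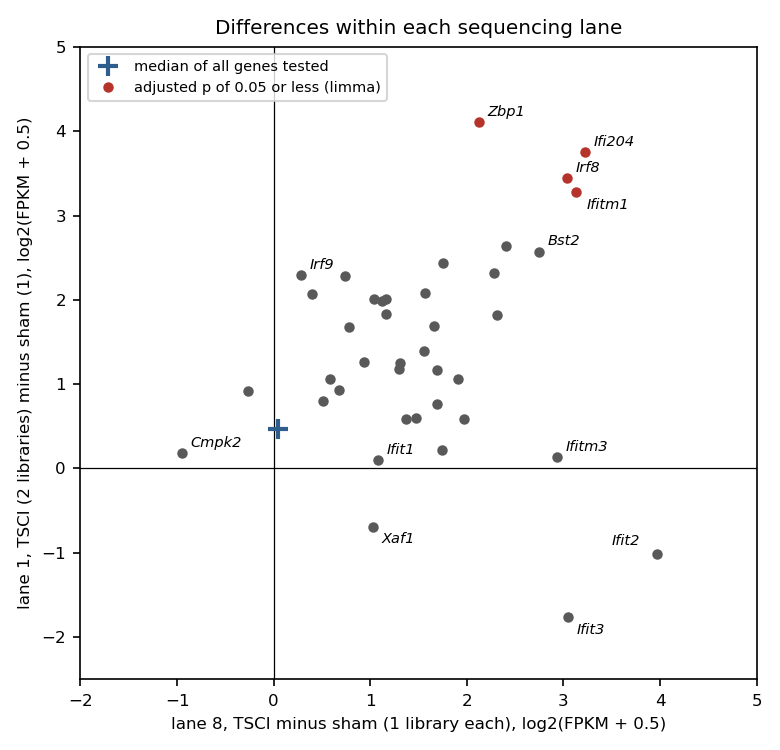
Difference TSCI minus sham on the log2(FPKM + 0.5) scale within lane 8 (x axis, 1 library of each group) and within lane 1 (y axis, 2 TSCI libraries and 1 sham library), 1 point for each of the 40 tested genes. The 4 red genes (adjusted p of 0.05 or less in limma) lie at the upper right, 35 points are above 0 on both axes, Ifit2, Ifit3 and Xaf1 lie below 0 in lane 1, and the blue cross marks the median of all genes.

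The 4 calls are near the limit of these data. Each was lost when TSCI replicate 2, TSCI replicate 3, sham replicate 2 or sham replicate 3 was left out (limma, adjusted p from 0.065 to 0.408), without TSCI replicate 1 Zbp1 alone passed (0.0378), and all 4 passed without sham replicate 1, with log2 fold changes from 2.78 to 4.03 over these fits. The median of all genes stood at 0.44 as deposited and at 0.07 after median-ratio scaling, where Irf8 alone passed (limma, adjusted p = 0.0423) and the median of the members was 0.90.

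Single isoforms show what the gene values consist of. Of 69 isoforms of the members that were tested, 0 passed (limma; 12 at an unadjusted p under 0.05, all higher in TSCI), against 152 of 89293 isoforms called higher in all (0.17%). The lowest p was that of the full-length Irf8 isoform ENSMUST00000047737, at 3.12, 5.85 and 13.04 FPKM in TSCI, against 0 in each sham library (log2 fold change 3.76; limma, adjusted p = 0.105). In TSCI replicate 1 a shorter assembled isoform, 758 bases long, held 6.91 FPKM of the gene's 13.5. What sham libraries had of Irf8 lay mostly on another annotated isoform, ENSMUST00000162001, with 1.09, 0 and 0.383 FPKM.

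Zbp1 was carried in TSCI by a short isoform of 4 exons, ENSMUST00000109116, at 0.906, 8.93 and 6.07 FPKM, and by the isoform of 8 exons, ENSMUST00000029018, at 2.74, 0.814 and 3.35 FPKM. Both were at 0 in every sham library. Of Ifi204, 84% or more lay on ENSMUST00000111214 in every library but sham replicate 3, where it was 11.3%; this isoform was at 9.50, 5.60 and 18.2 FPKM in TSCI, against 0.610, 1.42 and 0.0438 FPKM in sham. Ifitm1 had its main isoform ENSMUST00000026564 in all libraries, at 40.2, 36.2 and 35.0 FPKM in TSCI, against 4.15, 6.32 and 5.11 FPKM in sham, while ENSMUST00000106040, with another first part, was at 0, 13.5 and 13.5 FPKM in TSCI, against 0 in sham.

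Other gene values changed isoform between libraries. Of 38 members with 2 or more isoforms, the highest one was not the same in all libraries in 29. Ifit3 lay on the annotated isoform ENSMUST00000102825 in TSCI replicate 1 (16.1 FPKM), while in sham it lay on an assembled isoform with a new junction, at 1.48, 3.03 and 3.73 FPKM. With annotated isoforms alone the log2 fold change of Ifit3 was 1.92 instead of -0.07. Isg15 lay on an assembled isoform in TSCI replicate 3 (9.20 FPKM) and sham replicates 2 and 3 (3.10 and 3.59 FPKM), and on the annotated one in the other libraries.

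Isg20 had its 4-exon isoform ENSMUST00000038142 at 0, 44.4 and 18.9 FPKM in TSCI, against 1.25, 0 and 1.68 FPKM in sham. Its 3-exon isoform ENSMUST00000120331 was at 6.20, 11.9 and 3.69 FPKM in TSCI, against 0.221, 19.0 and 12.7 FPKM in sham. The longer one thus led in TSCI replicates 2 and 3 and the shorter one in sham replicates 2 and 3; neither passed. Irf5 lay on ENSMUST00000004392 in TSCI replicate 1 (8.13 FPKM) and mostly on an assembled isoform, at 2.37 and 4.07 FPKM, in TSCI replicates 2 and 3.

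**Figure D4:**
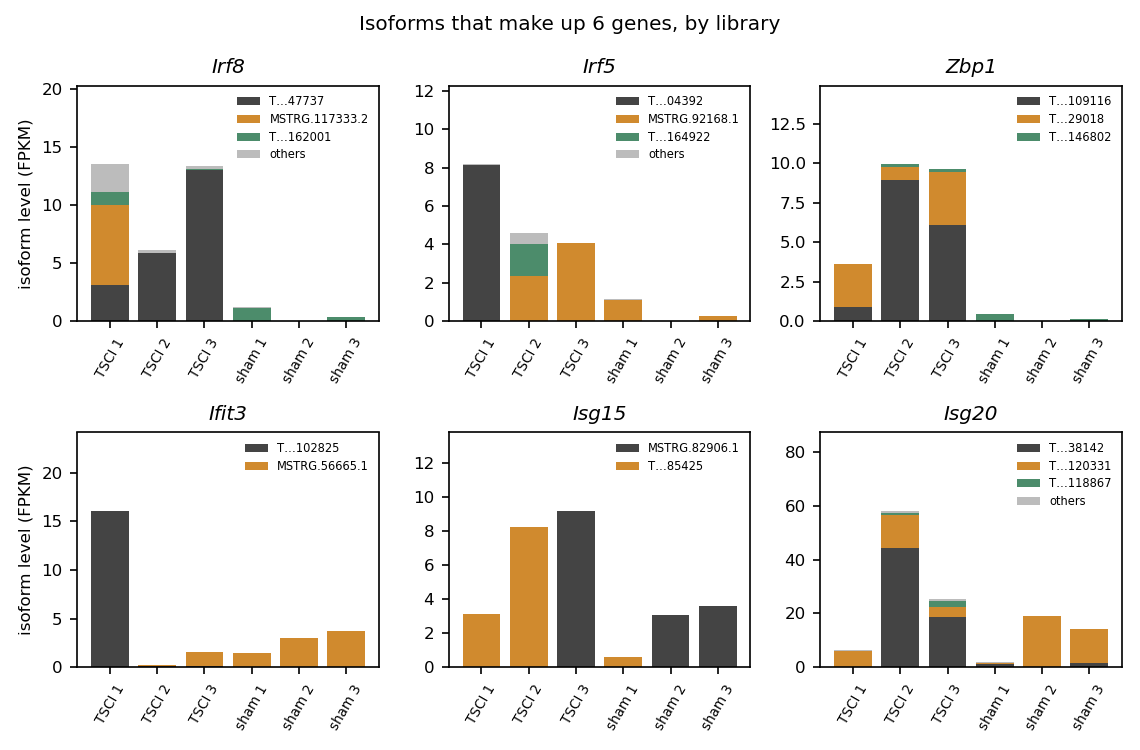
Level of the isoforms (FPKM, y axis from 0) that make up 6 of the genes, stacked by library, with the TSCI libraries left of the sham libraries; T… stands for ENSMUST and its zeros, and MSTRG marks assembled isoforms. Irf8 and Zbp1 bars are tall in TSCI and near 0 in sham, Ifit3 is tall in TSCI replicate 1 alone, and the colours of Isg15, Isg20 and Irf5 change between libraries.

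A second deposited readout, circular RNAs made by back-splicing of exons, touched 2 members. A circRNA of Parp14 (chr16:35852732-35853758, 2 exons) had 33, 36 and 79 estimated counts in TSCI and 27, 0 and 4 in sham. A circRNA of Parp9 (chr16:35963975-35964364, 1 exon) had 33, 33.5 and 90 in TSCI and 18, 0 and 13 in sham. In both circRNAs the groups did not overlap, with TSCI above, as in 532 of all circRNAs tested (3.06%), with log2 fold changes of 2.55 and 2.32 (edgeR, adjusted p = 0.430 and 0.442). Of 17363 circRNAs tested, 0 passed in edgeR (0%; 2022 at an unadjusted p under 0.05), and DESeq2 called 251, neither of these among them (DESeq2, adjusted p = 0.213 and 0.243).

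The rest of the pathway was read from lists that hold no member. Of 9 interferon genes looked up, Ifnk had isoforms among those kept, at 0.437 FPKM or less in every library, and the other 8 were not analysed here. All 5 tested receptor genes had a fold change above 0, and 0 passed (limma, with 3 at an unadjusted p under 0.05). Over all genes tested, 69.9% were above 0 and 10% were higher at an unadjusted p under 0.05 (limma). Il10rb, a chain of the interferon lambda and interleukin 10 receptors, was at 12.9, 16.7 and 14.2 FPKM in TSCI, against 2.54, 0.569 and 1.77 FPKM in sham (log2 fold change 2.95; limma, adjusted p = 0.0542). Ifnar1 had 13.7, 14.1 and 23.3 FPKM in TSCI, against 8.94, 3.68 and 4.49 in sham, with no overlap, and Ifnar2 had 22.8, 7.62 and 17.0 FPKM in TSCI, against 11.6, 0.0619 and 1.16.

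In the relay of JAK kinases and STAT factors, 0 of 5 tested genes passed (limma; 1 at an unadjusted p under 0.05). That gene was Stat3, used by interleukin 6 family cytokines more than by interferons, with 46.0, 22.4 and 23.0 FPKM in TSCI, against 15.5, 3.91 and 7.34 in sham, with no overlap. Jak2 and Tyk2 had log2 fold changes of 1.30 and 0.93, with overlapping groups.

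Upstream sensors and adaptors had 11 of 13 fold changes above 0 and 7 genes with no overlap. Of these genes 0 passed (limma, with 5 at an unadjusted p under 0.05). Over all genes tested, 69.9% were above 0 and 13.4% had no overlap with TSCI above. Tmem173, which encodes the DNA pathway adaptor STING, had 9.67, 2.56 and 5.85 FPKM in TSCI, against 0.880, 0 and 0.181 in sham (limma, adjusted p = 0.0790). The endosomal RNA receptor gene Tlr7 (log2 fold change 2.35) and the DNA sensor gene Aim2 (2.24) came next (limma, adjusted p = 0.142 and 0.189).

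Among 9 tested genes that restrain the pathway, 6 had a fold change above 0, with a median of 0.44, as over all genes, and 1 rose. Socs3, which blocks JAK kinases chiefly below interleukin 6 family receptors, was at 27.0, 23.9 and 32.0 FPKM in TSCI, against 0.160, 0.302 and 1.26 FPKM in sham. It rose by 4.84 ± 0.66 on the log2 scale (SE; limma, adjusted p = 0.00515), more than any member. Ptpn6, the phosphatase SHP-1 of blood cells, had 18.0, 10.9 and 12.1 FPKM in TSCI, against 1.32, 1.96 and 1.22 in sham (limma, adjusted p = 0.0544). Samhd1 had a log2 fold change of 1.15 (limma, adjusted p = 0.578). Those of Irf2, Pias1 and Adar were below 0, at -1.04, -0.75 and -0.14.

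Of 44 further interferon-induced genes tested, 41 had a fold change above 0 (93.2%), their median was 1.30, and 21 had no overlap. Over all genes tested, 69.9% were above 0, the median was 0.44, and 13.4% had no overlap with TSCI above. Mnda and Ifi205, given above with Ifi204, were the 2 that passed. Irgm1, a GTPase of autophagy, had 11.4, 6.56 and 12.4 FPKM in TSCI, against 2.64, 1.39 and 1.31 in sham (limma, adjusted p = 0.142).

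Markers of myeloid cells are given beside the members. Over all genes tested, 13.4% had no overlap with TSCI above. The summed level of 8 monocyte and macrophage genes was 415, 2600 and 1973 FPKM in TSCI, against 34.8, 113 and 112 FPKM in sham; no overlap was found in 8 of 8, and Arg1, Cd14 and Adgre1 rose. The sum of 8 microglial genes was 222, 358 and 442 FPKM in TSCI, against 86.5, 54.5 and 89.3 FPKM in sham, with 4 of 8 not overlapping and 1, Fcrls, past the threshold. Others on the microglial list were uneven: log2 fold changes were 2.38 for Tmem119, 1.83 for Csf1r, 0.59 for P2ry12, 0.40 for Sall1, 0.21 for Cx3cr1 and -1.09 for Siglech. Neutrophil genes summed to 134, 473 and 121 FPKM in TSCI, against 18.2, 261 and 83.2 FPKM in sham, with 4 of 7 not overlapping and 0 past the threshold (limma; 4 at an unadjusted p under 0.05). The defining marker Ly6g stayed under the filter, with TSCI values of 0.271, 0.975 and 0.485 FPKM and 0 in every sham library. S100a8 reached 6.30, 200 and 53.3 FPKM in sham replicates 1 to 3, beside TSCI values of 54.8, 236 and 79.4 FPKM. Its groups overlapped, as did those of S100a9 and Ngp. The 0 of Ly6g thus does not show that sham cords lacked neutrophil RNA. The part of these cells in the levels of the interferon response genes was not tested.

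Lymphocyte markers were low. The sum of 8 T and NK cell genes was 0.516, 2.19 and 2.20 FPKM in TSCI, against 0.830, 1.32 and 2.53 FPKM in sham, with Cd4 and Ncr1 at 0 in all sham libraries. B cell genes summed to 4.29, 5.59 and 6.91 FPKM in TSCI, against 12.9, 5.08 and 8.32 FPKM in sham. Plasmacytoid dendritic cells, the main producers of type I interferon in blood, share Irf8 and Bst2 with the members. Of their other markers, Tcf4, which many cells express, had 40.4, 13.1 and 26.5 FPKM in TSCI, against 26.6, 7.11 and 9.45 FPKM in sham (log2 fold change 0.96; limma, adjusted p = 0.649). Siglech, which is on the microglial list too, had 0.472, 1.92 and 2.59 FPKM in TSCI, against 2.07, 4.42 and 5.09 FPKM in sham. Ccr9 was at 0.733 FPKM or less in every library, and Klk1 was at 0 in every TSCI library.

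No gene on the lists of other tissue cells passed the threshold (limma; at an unadjusted p under 0.05, 3 endothelial and 3 meningeal or fibroblast genes were higher and 3 muscle genes lower). Endothelial genes summed to 92.5, 48.9 and 87.8 FPKM in TSCI, against 36.9, 10.6 and 22.7 FPKM in sham, and genes of meninges and fibroblasts to 376, 332 and 434 FPKM in TSCI, against 121, 102 and 159 FPKM in sham. Muscle genes summed to 1.84, 9.71 and 3.38 FPKM in TSCI, against 1.59, 86.2 and 23.0 FPKM in sham. Neuronal genes were at 449, 279 and 612 FPKM in TSCI, against 1010, 340 and 532 FPKM in sham, oligodendrocyte genes at 2141, 1531 and 5270 FPKM in TSCI, against 6404, 926 and 1202 FPKM in sham, and astrocyte genes at 1307, 211 and 586 FPKM in TSCI, against 1046, 193 and 306 FPKM in sham. The 3 last sums overlapped between groups.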

How the data were processed

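RNA of mouse spinal cord (3 TSCI libraries, 3 sham) was depleted of ribosomal RNA and made into stranded libraries, per the labels' protocols. HISAT2, StringTie and TopHat are named, without versions, in the submitters' processing notes; genome build, circRNA caller and use of strand in counting: not given in the sources used here. For each isoform the authors deposited FPKM and coverage (a signal). Dividing FPKM by coverage gave the aligned bases of each library. The circRNA table held deposited counts, treated as estimated counts since 33.8% were whole (within 1e-06); they were rounded before testing.

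FPKM were summed per gene over isoforms of class codes =, j, c, o and e, without rescaling. Of the member transcript IDs found in GENCODE M21 (GRCm38), 142 of 147 had the same coordinates, so coordinates are given as GRCm38, with gene positions from GENCODE M21. Genes and isoforms with a mean of at least 0.5 FPKM were tested with limma 3.58.1 (trend) on log2(FPKM + 0.5), with Benjamini-Hochberg adjustment over all features tested and a threshold of 0.05; fold changes on this scale understate those of low genes. Variances were moderated with 10.02 prior degrees of freedom for genes and a pooled variance for isoforms. An exact permutation test of 3 against 3 libraries cannot go below 0.1 and was not used. circRNAs with at least 10 counts and presence in 3 libraries went into the quasi-likelihood test of edgeR 4.0.16 after TMM scaling, and DESeq2 1.42.0 was the alternative. R 4.3.3 and Python 3.11.15 were used.

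In simulated data with 40 genes changed per size among 16740, the gene fit recovered 92.5% of changes of 6 on the log2 scale, 72.5% at 4, 15% at 3 and 0% at 2 and at 1 with variances from the fitted prior, and 75%, 32.5%, 7.5%, 0% and 0% with each gene's own variance. The members and all lists were chosen with earlier results of these data known. Full values were given to members that passed. In each role they also went to the 2 of highest level, the 2 of lowest p and the 1 of lowest fold change. In the other lists they went to passing genes and the 3 of lowest p. Ifit3b, Oas1g, Ifi203, Cxcl10, Cxcl9, Ly6g and S100a8 were added after their values were seen. Some items of the lists are not reported here.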

Additional observations from a re-analysis of the deposited data

How the results depend on the processing

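The main values were 149 genes and 4 members past the threshold, 19 members with no overlap, a member median of 1.39, 186 isoforms and 0 circRNAs. The count of genes was 0 with no filter, 74 with median-ratio scaling, 61 with quantile normalization, 24 with all class codes, 43 with class = only, 644 with lane 8 as a covariate, 616 without the 2 libraries of lane 8, 7427 with array weights, and 14 to 1448 with each library left out. Members past the threshold were 0, 1, 1, 0, 0, 7, 7 and 26 in the same order, 0 to 9 with a library left out, and 2 with a pseudocount of 0.1. Array weights were 4.89 for TSCI replicate 3 and 5.01 for sham replicate 3, against 0.222 to 0.647 for the others. That fit thus rested mostly on 1 library of each group, and its counts are not read as a result. Members with no overlap were 30 of 38 without lane 8, where 45.3% of all genes had none. The member median was 1.80 with a pseudocount of 0.1, 0.90 with median-ratio scaling and 0.94 with quantile normalization, where the median of all genes was 0.07 and -0.03. Isoforms past the threshold were 54 to 1010 with a library left out, and DESeq2 called 251 circRNAs.

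Same-numbered libraries deviated together with correlations of 0.49, 0.28 and 0.08, and TSCI replicate 2 went better with sham replicate 3 (0.36), so the numbers were not taken as pairs. With the replicate number as a block 963 genes, 9 members, 1 isoform and 0 circRNAs passed.

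Signs turned for few genes: Ifit3 was 0.067 with a pseudocount of 1 and 1.92 with class = only, Ifit1 0.36 and Dhx58 -0.072 with all class codes, and Ifit2 -0.79 without lane 8. With array weights, whose fit did not fully converge, Ifit1 was 0.12, Ifit2 -0.42, Ifitm3 -0.63, Xaf1 -0.47 and Cmpk2 0.49. With each library left out, Ifit1 ran from -1.78 to 0.23, Ifit2 from -0.38 to 1.499, Ifit3 from -1.32 to 0.92, Ifi27l2a from -0.31 to 1.84 and Cmpk2 from -0.69 to 0.045. The cause was not tested. At a mean under 2 FPKM (10 members) depth limits the precision.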
